A study of Rattus norvegicus with 4 samples.

Results

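The lysosomal cathepsins described here are 10 rat genes, namely the cysteine proteases Ctsb, Ctsc, Ctsh, Ctsk, Ctsl, Ctss and Ctsz, the aspartic proteases Ctsd and Ctse and the serine carboxypeptidase Ctsa. They were chosen by gene name, not by measured value, as the non-control probes whose array name is one of these symbols or an older rat alias such as Ctsl1. This gave 11 of the 45598 different probes and 10 of the 19459 named genes. Earlier results of these data were known when the genes were chosen. Ctsc had 2 probes and the other 9 genes had 1 probe each.

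Transcripts were measured in NR8383, a macrophage line established from the lung lavage of a normal rat, whose cells grow partly attached and partly floating. The 4 samples form a single submerged control group of cells after 20 passages, kept in 15% serum with glutamine, penicillin, streptomycin and amphotericin B, and the labels name no other agent and no genetic change. The labels give 4 h of submerged incubation and 48 h after seeding, and which of these applies was not settled here. With 1 group there is no contrast between conditions, so the question the data allow is which cathepsins the line expresses and how far replicates differ. The design text calls the replicates biological, and all 4 arrays lay on 1 slide, so no slide batch could be tested.

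Cathepsins are made as inactive precursors, are tagged with mannose-6-phosphate in the Golgi and are carried by receptors to endosomes, where low pH and other proteases activate them. In macrophages they digest phagocytosed protein, and some of them trim antigens and the chaperone that guards MHC class II molecules. Cystatins are protein inhibitors of the cysteine cathepsins, and the MiT family of transcription factors, which includes Tfeb, is known to raise lysosomal genes.

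The arrays read each transcript through DNA probes of 60 bases, and the probes on which the results below turn are shown from the deposited files. The first 30 bases are given for most of them, and the whole probe for Ctsh and Ctss, a pair whose levels differed by nearly the same amount on every array. All letters are in lower case because no motif is marked.
Ctsl: aataaggactgacggacactacatccgaag
Ctsh: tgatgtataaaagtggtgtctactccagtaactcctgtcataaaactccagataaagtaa
Ctss: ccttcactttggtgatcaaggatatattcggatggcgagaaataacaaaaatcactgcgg
Ctsb: aaacctgcttttttgttgtaggtgccacgt
Ctsd: ctgggctagtcagatgggagccaaagttga
Ctsk: aaacttacatgatgtaaaaaatgtttcctt
Ctsc, main transcript: gctggtcacctaaaatgcagccagatgttt
Ctsc, predicted transcript: attttctaaccacagtggttcctgggtctg

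On the rn4 build, whose coordinates the files give, the Ctsl probe lies on chr17:6293891-6293950 and the Ctsb probe on chr15:42423613-42423672. The Ctsd probe lies on the minus strand at chr1:202619669-202619727. The Ctsh probe is mapped to chr8:94986941-94989247, a span of 2307 bases for a probe of 60, so the mapped interval holds bases that the probe does not. Ctsk and Ctss are neighbours on chromosome 2, at chr2:190405601-190405660 and chr2:190466474-190466533, with 60813 bases between their probes. Between them the RefSeq annotation of GRCr8 lists 2 entries, Eef1e1-ps1 and LOC134485802. The probes of Ctsc lie 19189 bases apart, at chr1:144661035-144661094 for the main transcript and chr1:144641786-144641845 for a predicted one. Ctse is read at chr13:44605158-44605217 and Ctsa at chr3:155871808-155871867, and the files map the Ctsz probe to no position. No exon or UTR annotation of rn4 was used here.

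Levels are log2 processed fluorescence centred on the 75th percentile of all non-control spots of the same array, so 0 is the signal at that percentile. Detection on an array asked that the scanner's flag for well above background be set for over 0.5 of a probe's usable spots. The 75th percentile was 1317, 1489, 1179 and 958 fluorescence units on replicates 1 to 4, no spot was saturated, and 10932 to 11647 named genes were detected per array. Levels of different probes depend on the probe as well as on the transcript and are not set against each other. In culture RNA, fewer cells expressing a gene and less of its RNA per cell cannot be told apart.

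Of the 10 cathepsins, 8 were detected on all 4 arrays, against 54.6% of all named genes. Ctse and Ctsk were detected on none. The 8 detected cathepsins cover all 3 catalytic classes: Ctsb, Ctsc, Ctsh, Ctsl, Ctss and Ctsz, then Ctsd, then Ctsa. With the scanner's more permissive flag, positive and significant, Ctsk was called on all 4 arrays and Ctse on 1, which made 9 of 10 cathepsins against 65.4% of named genes.

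**Figure D1:**
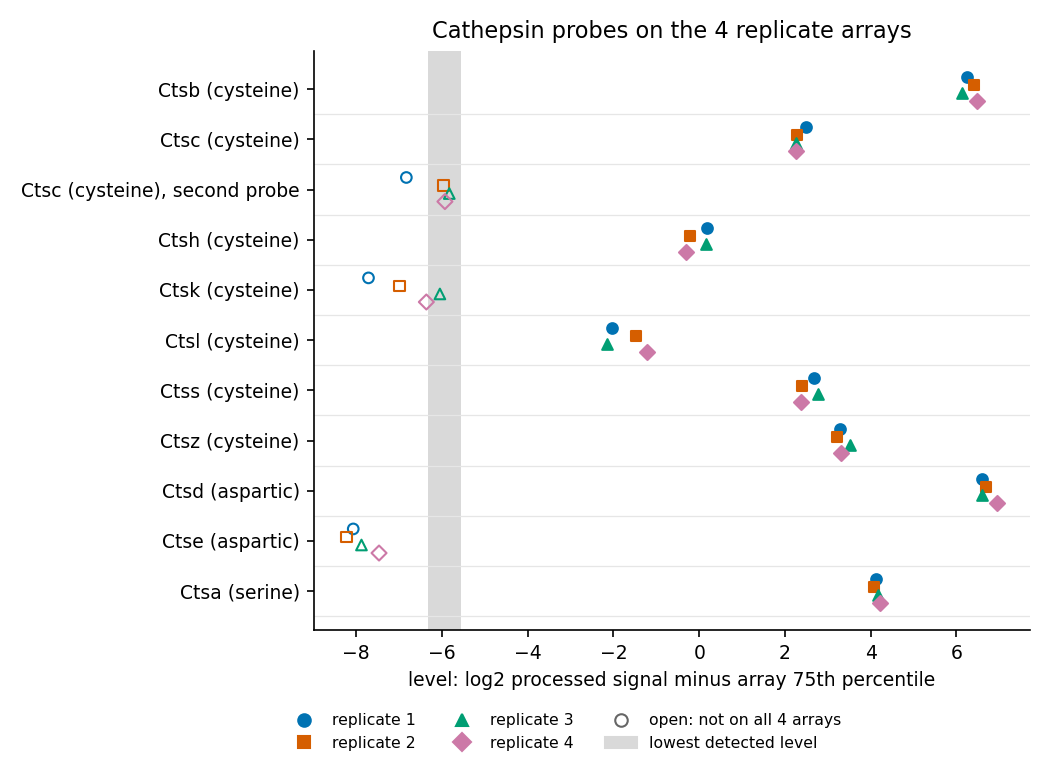
Level of each cathepsin probe on each of the 4 replicate arrays (x axis, log2 relative to the 75th percentile of the array), 1 row per probe and 1 symbol per replicate, with open symbols for probes not detected on all 4 arrays. The grey band spans the lowest level of a detected probe on the 4 arrays, from -6.34 to -5.56; 8 probes lie well to its right, and those of Ctse, Ctsk and the predicted Ctsc transcript lie in or left of it.

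Among the endopeptidases, Ctsd, the main aspartic protease of lysosomes, lay at 6.59, 6.69, 6.60 and 6.95 on replicates 1 to 4 (6.71 ± 0.17, SD, n = 4). Replicate 4 stood highest and the other 3 arrays lay within 0.094 of one another. This depended on the scale. With quantile normalization replicates 2 and 4 of Ctsd lay close together, at 6.78 and 6.80. On the spike-in scale described below replicate 4 was the lowest, at 4.10. Ctsb, a cysteine protease that also removes dipeptides from the carboxyl end, lay at 6.24, 6.41, 6.13 and 6.47 (6.31 ± 0.16, SD, n = 4). Its higher arrays were replicates 2 and 4. The probes of Ctsd and Ctsb were bright on every array, with a spot mean 1884 to 3705 times the local background.

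Ctsl, an endopeptidase closely related to Ctss and Ctsk, lay at -2.03, -1.47, -2.15 and -1.22 (-1.72 ± 0.44, SD, n = 4). Replicates 2 and 4 were high and replicates 1 and 3 low, and the highest array stood 1.90-fold over the lowest. This range was the widest of the 8 detected cathepsins on this scale. On the spike-in scale described below, Ctsh, Ctsc and Ctss had larger SDs, at 0.63, 0.56 and 0.56 against 0.52 for Ctsl. Spots of Ctsl were still 15.1 and 15.2 times the local background on replicates 2 and 4 and 10.3 and 8.93 times on replicates 1 and 3. Ctss, which stays active near neutral pH and trims the MHC class II chaperone, lay at 2.69, 2.40, 2.78 and 2.37 (2.56 ± 0.21, SD, n = 4). Here replicates 1 and 3 were the high arrays and replicates 2 and 4 the low ones.

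Among the exopeptidases, Ctsh, an aminopeptidase known for processing surfactant protein in alveolar epithelium, lay at 0.17, -0.20, 0.15 and -0.32 (-0.05 ± 0.25, SD, n = 4). Its high arrays were replicates 1 and 3, as for Ctss. Ctsc, the dipeptidyl peptidase that activates serine proteases of leukocyte granules, lay at 2.49, 2.28, 2.27 and 2.25 (2.32 ± 0.11, SD, n = 4). Replicate 1 stood above the other 3 arrays, which lay within 0.026 of one another. Its second probe, for the predicted transcript, lay at -6.83, -5.97, -5.83 and -5.93 and was detected on replicate 2 alone.

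Ctsz, a carboxypeptidase, lay at 3.28, 3.22, 3.51 and 3.32 (3.33 ± 0.12, SD, n = 4), with replicate 3 highest. Without that array its SD was 0.050. Ctsa, a serine carboxypeptidase that also shields the enzymes Neu1 and Glb1 in a lysosomal complex, lay at 4.11, 4.07, 4.16 and 4.22 (4.14 ± 0.07, SD, n = 4). Its highest array stood 1.11-fold over its lowest.

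The undetected members were close to background. Ctse, an aspartic protease of endosomes known from gastric mucosa and immune cells, gave 4.90, 4.99, 5.02 and 5.41 fluorescence units on replicates 1 to 4. Ctsk, the collagen-degrading protease of osteoclasts, gave 6.28, 11.8, 17.8 and 11.6. The lowest signal of any detected probe was 16.5, 18.4, 19.1 and 20.3 on the same arrays, so every value of both genes lay under it. Each rests on 1 probe on 1 spot, and whether either probe works was not tested. Ctsk was not well above background on any array while its neighbour Ctss was detected on all 4.

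How far a gene varied between arrays was tested against its peers. For each of the 19400 probes detected on all arrays, the variance over the 4 arrays was divided by a prior variance that limma fitted for probes of like signal, as an F test with Benjamini-Hochberg adjustment over all of them. None of the 8 detected cathepsins passed at an adjusted p of 0.05 in limma, where 0.151% of detected genes passed, and their adjusted p lay between 0.282 and 0.996. At an unadjusted p under 0.05, 3 of the 8 were called, Ctsl, Ctsh and Ctss, against 5.75% of detected genes. Ctsl had the lowest limma values, with an SD 3.45 times the prior SD of 0.128 (unadjusted p = 0.0052, adjusted p = 0.28). For Ctsh the SD was 2.38 times its prior (limma, unadjusted p = 0.032, adjusted p = 0.66), and for Ctss 2.18 times (limma, unadjusted p = 0.047, adjusted p = 0.76). The median SD over the 8 cathepsins was 0.162, with a range of 0.067 to 0.44, and the median over all 10619 detected genes was 0.112. An SD at or above that of Ctsl was found in 328 detected genes, or 3.09%, and one at or above the cathepsins' median in 27.8%.

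**Figure D2:**
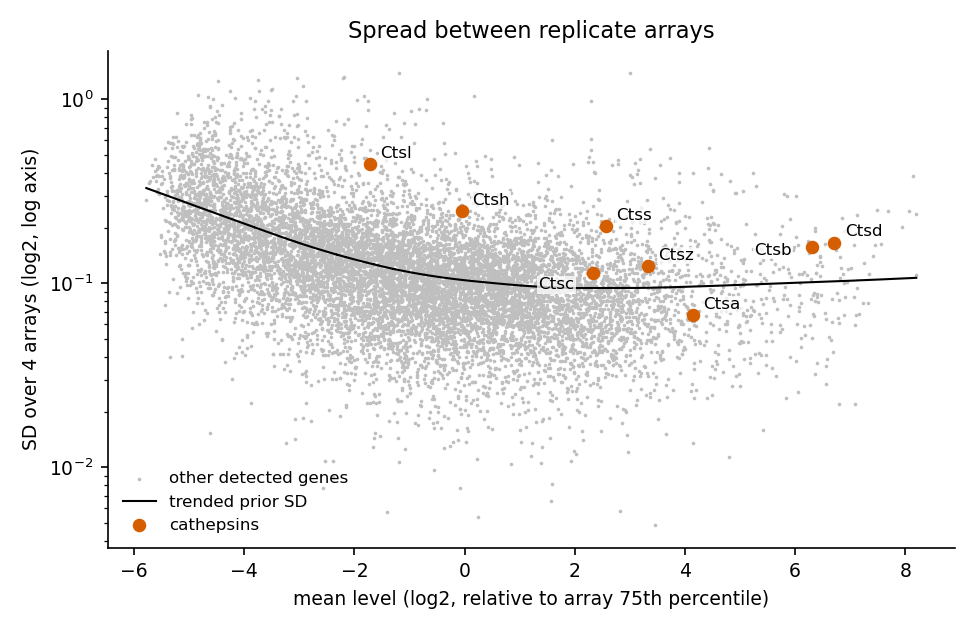
SD of the level over the 4 arrays (y axis, log2 units on a log axis) against mean level (x axis, log2 relative to the array's 75th percentile) for all 10619 detected genes, with the 8 detected cathepsins in orange and the trended prior SD of the limma fit as a line. Ctsl, Ctsh and Ctss lie furthest above the line, and Ctsa is the only one of the 8 under it.

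For 3 of the cathepsins the array itself repeats the measurement, since Ctsl, Ctsd and Ctsa are printed on 10 spots. Spots of Ctsl spanned -2.13 to -1.94 on replicate 1, -1.55 to -1.35 on replicate 2, -2.21 to -2.02 on replicate 3 and -1.32 to -1.13 on replicate 4. Every spot of replicates 2 and 4 thus lay above every spot of replicates 1 and 3, while replicates 1 and 3 overlapped. Replicate 4 also lay wholly above replicate 2. The SD between arrays was 23.0 times the mean standard error of a 10-spot mean for Ctsl, 10.2 times for Ctsd and 4.13 times for Ctsa, where 1 spot per array was left out as flagged. Spots of 1 array share labelling and hybridisation, so these standard errors hold spot noise alone.

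**Figure D3:**
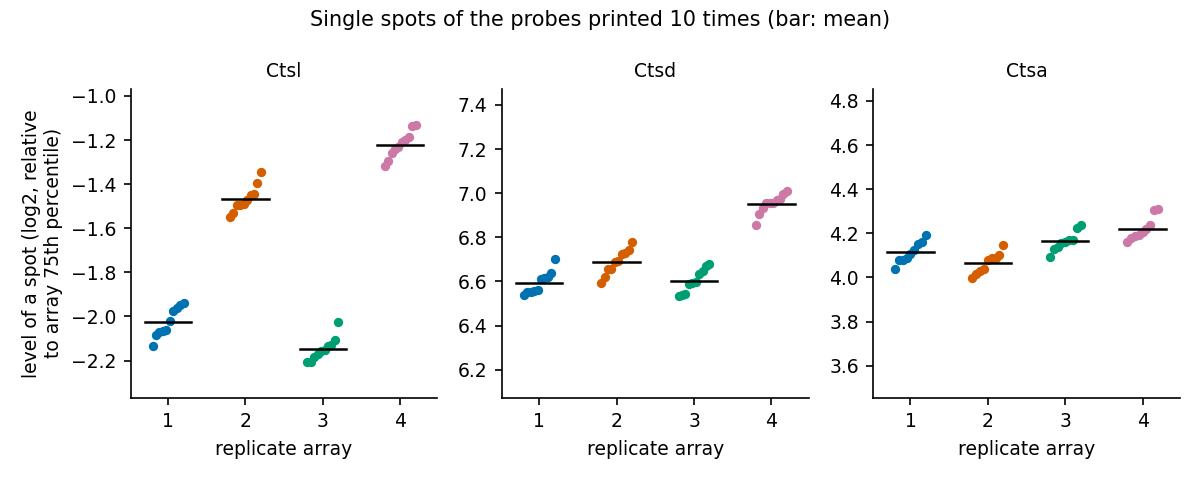
Level of each unflagged spot (y axis, log2 relative to the array's 75th percentile) for the 3 cathepsin probes printed 10 times, by replicate array, with a bar at the mean; each panel spans 1.4 log2 units. On this scale every Ctsl spot of replicates 2 and 4 lies above those of replicates 1 and 3, and replicate 4 also lies wholly above replicate 2. Replicate 4 stands above the others for Ctsd, and neighbouring arrays overlap for Ctsa. With quantile normalization replicates 2 and 4 of Ctsd lie at 6.78 and 6.80.

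Deviations from each gene's own mean showed cathepsins moving in opposite ways across the arrays. On replicates 1 to 4 Ctsl deviated by -0.31, 0.25, -0.43 and 0.49, and Ctsb by -0.08, 0.10, -0.18 and 0.16. Ctsd deviated by -0.11, -0.02, -0.11 and 0.24. Ctsh went the other way, at 0.22, -0.16, 0.20 and -0.27, as did Ctss at 0.13, -0.16, 0.22 and -0.19. Ctsa, Ctsc and Ctsz followed neither order. The mean deviation of all 8 was -0.01, -0.03, -0.02 and 0.05, an SD of 0.037, and members going opposite ways cancel in it. On a scale set by 8 spike-in control probes, meant for RNA added at labelling, the arrays were ordered differently for every detected cathepsin but Ctsc. There Ctsl lay at -3.89, -3.33, -4.60 and -4.07 on replicates 1 to 4, so replicate 4 fell below replicate 1, and 7 of the 8 cathepsins had their lowest level on replicate 4. These groupings were made after the values were seen and carry no test.

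**Figure D4:**
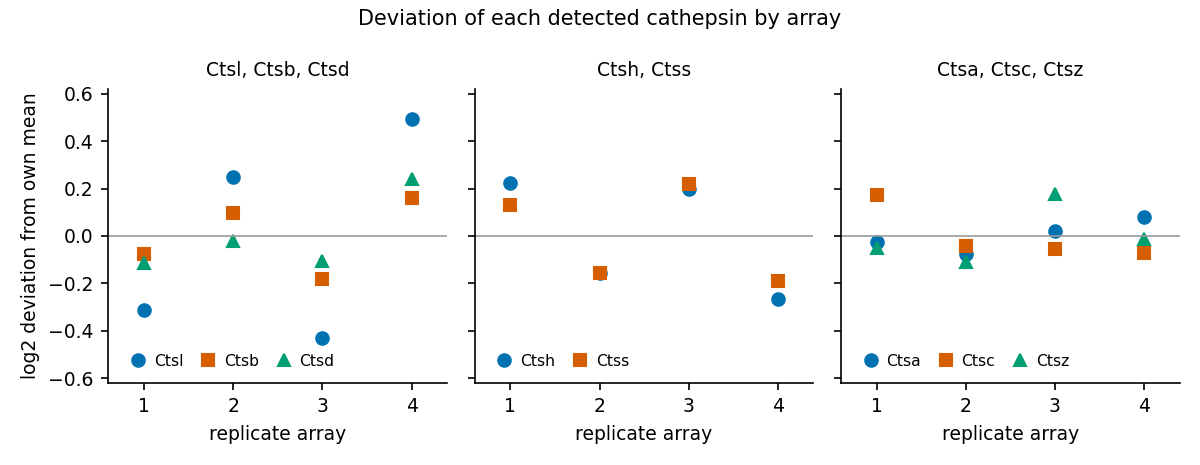
Deviation of each detected cathepsin from its own mean over the 4 arrays (y axis, log2 units) by replicate array, in 3 panels arranged after the values were seen. On the 75th percentile scale Ctsl, Ctsb and Ctsd are highest on replicate 4 and below their means on replicates 1 and 3. Ctsh and Ctss are lowest on replicate 4 and above their means on replicates 1 and 3, and the remaining 3 follow neither. With normexp or quantile normalization Ctsb is highest on replicate 2, and with quantile normalization Ctss is lowest there. On the spike-in scale 7 of the 8 are lowest on replicate 4.

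Differences between a pair of cathepsins on the same array are free of the array's scale, and 28 pairs can be formed from 8 genes. They were examined after the values were seen and are a description. Over all 4 arrays Ctsh minus Ctsl had the widest range, 1.39 or 2.62-fold, with values of 0.53, -0.40, 0.63 and -0.76 around its mean on replicates 1 to 4. Ctsl minus Ctss came next, with a range of 1.34 or 2.53-fold. Without replicate 4 this order turned, to 1.03 for Ctsh minus Ctsl and 1.06 for Ctsl minus Ctss. The narrowest ranges over all 4 arrays were those of Ctsh minus Ctss, 0.17 or 1.12-fold, and of Ctsb minus Ctsd, 0.20 or 1.15-fold. With 1 array left out, counted from the widest of the 28 ranges, Ctsh minus Ctss ranked 26 to 28 and Ctsb minus Ctsd 25 to 28. They are the same on any scale that adds 1 constant per array, the spike-in scale included.

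On the 75th percentile scale Ctsl and Ctsd were high on replicate 4 and Ctss was low there. On the spike-in scale replicate 4 was the lowest array of Ctsd and lay below replicate 1 for Ctsl. No link between sequence and level was tested. Promoters are shown for 4 members: Ctsl, Ctsd, Ctss and Ctsk, the undetected neighbour of Ctss. These are the 250 bases before the annotated start, 5′ to 3′ on the strand of the gene, from RefSeq on GRCr8, where 9 of the 10 cathepsins matched and Ctsb did not. Of 14 motifs searched on both strands, capitals mark CACGTG, its longer form TCACGTGA, GAGGAAGT, and GAAA followed by any 2 bases and GAAA. The first pair is known as the core of MiT family sites, GAGGAAGT as a site of the macrophage factor Spi1, and the GAAA repeat as the core of interferon response elements.
Ctsd: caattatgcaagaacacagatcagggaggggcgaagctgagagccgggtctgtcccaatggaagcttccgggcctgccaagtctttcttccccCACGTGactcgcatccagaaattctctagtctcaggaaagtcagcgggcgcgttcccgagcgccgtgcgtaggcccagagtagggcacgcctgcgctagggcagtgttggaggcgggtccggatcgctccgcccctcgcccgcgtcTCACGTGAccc
Ctss: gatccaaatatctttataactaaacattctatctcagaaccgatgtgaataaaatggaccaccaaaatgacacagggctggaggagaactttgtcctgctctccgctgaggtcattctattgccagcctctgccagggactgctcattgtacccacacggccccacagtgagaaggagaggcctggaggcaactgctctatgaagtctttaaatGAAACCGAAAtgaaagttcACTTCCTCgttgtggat
Ctsl: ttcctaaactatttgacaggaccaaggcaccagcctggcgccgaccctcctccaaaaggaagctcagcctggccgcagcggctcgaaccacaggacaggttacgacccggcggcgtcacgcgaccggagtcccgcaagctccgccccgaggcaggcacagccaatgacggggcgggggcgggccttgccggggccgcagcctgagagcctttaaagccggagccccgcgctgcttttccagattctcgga
Ctsk: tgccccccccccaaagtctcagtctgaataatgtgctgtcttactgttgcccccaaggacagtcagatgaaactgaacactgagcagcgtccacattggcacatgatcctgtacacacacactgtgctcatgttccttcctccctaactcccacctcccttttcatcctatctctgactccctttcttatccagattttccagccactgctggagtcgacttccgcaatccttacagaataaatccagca

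In GRCr8 these windows are chr1:206968822-206969071 on the minus strand for Ctsd, and on the plus strand chr2:185775146-185775395 for Ctss, chr17:769854-770103 for Ctsl and chr2:185747298-185747547 for Ctsk. CACGTG stood in the Ctsd window at 157 and 10 bases upstream, and the copy at 10 lay inside TCACGTGA. Among all 33469 promoters of this length, 5.59% held CACGTG and 0.657% held TCACGTGA, and Ctsd was the only one of the 9 cathepsins with either. A longer form of 10 bases, with TCACGTGA at its centre, was also searched. It stood in 0 of the 9 cathepsins, so not in Ctsd either, against 0.203% of all promoters. GAGGAAGT stood in the windows of Ctss, Ctsc and Ctse, against 2.04% of all promoters, and in Ctss it lay 17 bases upstream on the opposite strand. The GAAA repeat stood in Ctss alone, 36 bases upstream, against 3.41% of all promoters. It was added to the search after the Ctss sequence had been read, so that match was found by choice. The other 13 motifs were also picked with these sequences in view.

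Base composition differed among the windows. GC content was 66.8% for Ctsl, with 24 CpG, and 63.2% for Ctsd, with 22 CpG. It was 46.4% for Ctss, with 5 CpG, and 49.6% for Ctsk, with 3. The median promoter had 51.2% and 5 CpG. Ctsz, Ctsa and Ctsc lay at 64%, 61.6% and 60.8%, and Ctsh and Ctse at 50.4% and 48.4%. GGGCGG, the GC box, stood in Ctsl, Ctsz, Ctsd, Ctsa and Ctsc, against 30.5% of all promoters.

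Genes that act on or beside cathepsins were described from lists by their counts, to be read beside the 54.6% of all named genes detected. The lists were chosen with earlier results of these data known. Of 10 further cathepsins, 2 were detected on all arrays, Ctsf at 0.91 ± 0.10 and Ctso at -2.58 ± 0.15 (SD, n = 4 each). Those not detected were Ctsw, known from cytotoxic lymphocytes, the neutrophil protease Ctsg and the rodent placental group of Ctsj, Ctsm, Ctsq, Ctsr, Cts7 and Cts8. The undetected ones are thus known from other cells or tissues. The count of this list, 2 of 10, is therefore no contrast to the lysosomal cathepsins, at 8 of 10.

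Of 7 cystatins on the array, 2 were detected on all arrays. Cst3, the secreted cystatin C, lay at 2.09, 1.98, 2.27 and 1.84, and Cstb, the cytosolic cystatin B, at 4.15, 4.35, 4.36 and 4.39. Csta, Cst6, Cst7, Cst8 and Cst11 were detected on none. Among other lysosomal proteases 6 of 7 were detected. The asparaginyl protease Lgmn, which cleaves the single chain of several cathepsins, lay at 0.73, 1.03, 0.66 and 1.26 (limma, unadjusted p = 0.014, adjusted p = 0.45). On the 75th percentile scale Lgmn was thus high on replicates 2 and 4, as Ctsl was. The spike-in scale lowers replicates 3 and 4 against replicates 1 and 2. Tpp1, a tripeptidyl peptidase, lay at 1.32 ± 0.09 and the carboxypeptidase Scpep1 at 2.59 ± 0.09 (SD, n = 4 each), and Cpq was detected on no array.

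All 9 genes of mannose-6-phosphate tagging and sorting were detected. The cation-dependent receptor M6pr lay at 3.91, 4.00, 3.63 and 3.69, and the large receptor Igf2r at 2.86, 3.05, 2.63 and 3.16 (limma, unadjusted p = 0.027, adjusted p = 0.63). Gnptab, a subunit of the enzyme that begins the tag, lay at 0.97, 1.14, 0.88 and 1.02. All 3 partners of Ctsa were detected: the sialidase Neu1 at -0.78 ± 0.15, the galactosidase Glb1 at 0.78 ± 0.17 and the sulfatase Galns at -4.77 ± 0.23 (SD, n = 4 each). All 4 MiT factors were detected, with Tfeb at -1.98 ± 0.05, Tfe3 at 1.77 ± 0.07 and Tfec at 0.73 ± 0.16 (SD, n = 4 each). Mitf lay at 3.58, 3.33, 2.75 and 3.08 (limma, unadjusted p = 0.0034, adjusted p = 0.23), so its lowest array was replicate 3.

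**Figure D5:**
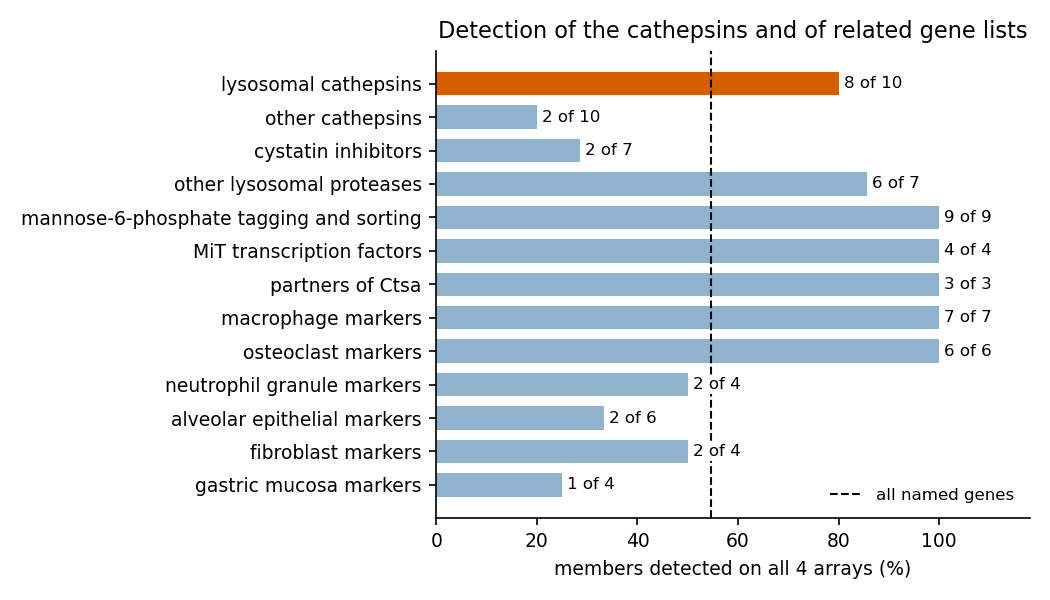
Percent of each gene list detected on all 4 arrays (x axis), with the lysosomal cathepsins in orange, 12 related lists in blue and the number detected of the number on the array beside each bar. The dashed line marks all named genes, 54.6%. The lysosomal cathepsins, at 8 of 10, lie above it, and the other cathepsins, at 2 of 10, below. The undetected ones of that second list are known from other cells or tissues.

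Marker lists were also described by their counts, to be read beside the 54.6% of all named genes that were detected. All 7 macrophage markers were detected, among them Cd68 at 4.74 ± 0.05, Csf1r, read by 1 detected probe of 2, at -0.02 ± 0.10 and Spi1 at -0.43 ± 0.12 (SD, n = 4 each). Tyrobp and Lyz2, named after their values were seen, lay at 5.47 ± 0.04 and 6.67 ± 0.06 (SD, n = 4 each). The list had a median SD of 0.097, against 0.112 for all detected genes. In limma 1 of the 7 had an unadjusted p under 0.05, against 5.75% of detected genes. The markers were not all as steady: the integrin subunit Itgam, named after its values were seen, lay at -1.42, -0.56, -1.59 and -0.03, high on replicates 2 and 4 as Ctsl was (limma, unadjusted p = 0.00014, adjusted p = 0.065). Cd14, also named afterwards, lay at -3.11, -2.87, -3.15 and -2.52, in the same order of arrays. These orders are those of the 75th percentile scale. The spike-in probes lay 1.86, 1.87, 2.46 and 2.85 above that percentile on replicates 1 to 4. Their scale thus lowers replicates 3 and 4 against replicates 1 and 2. The part of these marker differences in the spread of Ctsl was not tested. All 6 osteoclast markers were detected as well, although Ctsk was not. Acp5, the tartrate-resistant phosphatase, lay at -1.37, -0.72, -1.16 and -0.50, high on replicates 2 and 4 on the 75th percentile scale (limma, unadjusted p = 0.0048, adjusted p = 0.27). Calcr lay at 0.19 ± 0.14, and Ocstamp, detected by 1 of its 3 probes, at -4.96 ± 0.79 (SD, n = 4 each). The osteoclast list had 3 of 6 members at an unadjusted p under 0.05 in limma, Acp5, Ocstamp and Atp6v0d2, against 5.75% of all detected genes. Ocstamp lay at -5.27, -5.19 and -5.58 on replicates 1 to 3, where the lowest detected levels were -6.32, -6.34 and -5.95. The list's median SD was 0.248 against 0.112 for all detected genes, and these medians were not matched for signal. The part of this list in the spread of Ctsl was not tested.

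Of the other cell types known for particular cathepsins, 2 of 4 neutrophil granule genes were detected, Mpo and Camp, and Elane and Prtn3 were not. For the alveolar epithelium 2 of 6 were detected, Abca3 and Ager, whereas Sftpb and Lamp3 were detected on no array, Sftpc on 1 and Sftpa1 on 2, and Ctsh was detected on all 4 arrays. Of 4 gastric mucosa genes Pgc alone was detected, and Gkn1, Tff1 and Atp4a were not, as Ctse was not. Of 4 fibroblast genes Col1a2 and Dcn were detected and Col1a1 and Pdgfra were not. The share of the neutrophil granule and fibroblast lists, 2 of 4 each, lay near the 54.6% of all named genes. These 2 counts therefore say nothing about those cell types. Across all 12 lists limma's variance test called 0 of 46 detected members at an adjusted p of 0.05, against 0.151% of all detected genes. At an unadjusted p under 0.05 it called 7 of the 46, against 5.75%.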

How the data were processed

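One-colour Agilent rat arrays of 4 replicate NR8383 cultures were used, hybridised with Cy3-labelled RNA (100 ng) per the labels' protocols. The submitters' processing notes name Agilent Feature Extraction 11.0.1.1 as the software used. The deposited values are linear fluorescence intensity per spot, and per the file headers the processed signal is background-corrected by that software, with no scaling across arrays. The number of arrays limits the precision.

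From these, 58717 of 62976 spots per array were non-control. Spots flagged as non-uniform or population outliers were left out, log2 processed signal was centred on the array's 75th percentile, spots of a probe were averaged, and the brightest detected probe stood for a gene. Names came from the files through a RefSeq table of GRCr8: 23863 probes matched by accession, 5124 by symbol, 351 by older symbol, 871 by gene ID, and 15389 kept the array's name. The variance test used R 4.3.3 and limma 3.58.1 (robust, signal-trended prior), after a run on simulated data. Python 3.11.15, numpy 2.4.6, pandas 2.3.3 and matplotlib 3.10.9 did the rest.

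The members and lists were chosen with earlier results of these data known. The rule for naming list genes took the first 3 of each list with a probe, and the detected or the undetected ones where 4 or fewer. Alternatives were another detection flag, at least 2 arrays, every probe, flagged spots kept, normexp (offset 50), quantile normalization, no filter, a prior without the robust step or the trend, the mean over probes, the percentile of detected probes, and each replicate left out. The spike-in scale, the percentile of detected probes in the variance test, and the pair differences were added after seeing the data. Of the cystatin list, Cst9 was not matched.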

Additional observations from a re-analysis of the deposited data

Results flagged for a closer look

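In all, 39 results with 4 replicates were examined for an array far from the other 3, and 5 were found. They were levels of single genes and the mean deviation of the detected cathepsins. The cut-off is one that chance alone passes about 1 in 20 times, and the share over all detected genes was not computed. The value given is the gap to the nearest array over the whole range. All levels here are those of the scale centred on a percentile of all non-control spots. The spike-in scale lowers replicates 3 and 4 against replicates 1 and 2, and outlying arrays were not sought on it. Ctsc was highest on replicate 1, with 0.893 of its range between that array and the next, and its levels were 2.49, 2.28, 2.27 and 2.25 on replicates 1 to 4. For comparison, Ctsc lay at 0.63, 0.41, -0.19 and -0.60 on these arrays on the spike-in scale, so replicate 1 did not stand apart there. Among the related genes, Ctsf was lowest on replicate 2 (0.841) and Tpp1 highest on replicate 4 (0.882), both on the percentile scale. Among the markers, Csf1r was lowest on replicate 2 (0.902) and Col1a2 lowest on replicate 3 (0.833). On the percentile scale the ranges were small in fold terms. They were 1.18-fold for Ctsc, 1.16-fold for Ctsf, 1.13-fold for Tpp1, 1.15-fold for Csf1r and 1.31-fold for Col1a2.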

How the results depend on the processing

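Detection of 8 of 10 cathepsins became 9 with the positive and significant flag, through Ctsk, and 7 when every probe of a gene had to be detected, through Ctsc. It stayed at 8 when 2 arrays were enough, when flagged spots were kept and without each replicate in turn (8 to 8). The variance test in limma called 0 cathepsins, and 1 with no filter on dim probes, Ctsl at an adjusted p of 7.4e-04, where 1121 of 45588 probes were called against 33 of 19400. The lowest adjusted p among the cathepsins was 0.055 with normexp, which called 270 probes. It lay between 0.28 and 0.92 with quantile normalization, flagged spots kept, the spike-in scale, the percentile of detected probes and a prior without the robust step or the trend. The lowest value was that of Ctsl in each of these settings but the spike-in scale, where it was that of Ctsb. Without each replicate it lay between 0.24 and 0.57 and 0 to 0 cathepsins were called. Over all probes the count was 0 with a prior without the robust step or the trend, 12 with the percentile of detected probes and 1 with the spike-in scale. It was 75, 47, 0 and 52 without replicates 1 to 4, and the cause was not tested. The cathepsins' median SD of 0.162 became 0.50 on the spike-in scale, where that of all detected genes was 0.496, since the spike-in probes lay 1.86, 1.87, 2.46 and 2.85 above the 75th percentile on replicates 1 to 4. It lay between 0.147 and 0.190 without each replicate and between 0.138 and 0.177 under the other settings. Mean levels of all 8 moved on the spike-in scale, and that of Ctsa moved to 3.96 with normexp. By SD, Ctsa at 0.067 was the lowest of the 8 with all arrays, but Ctsc was lower without replicate 1 (0.013, against 0.079 for Ctsa), Ctsz without replicate 3 (0.050, against 0.080) and Ctsd on the spike-in scale (0.38, against 0.42). Without replicate 1 the range of Ctsh minus Ctss was 0.077, and without replicate 2 that of Ctsb minus Ctsd was 0.12. No paired analysis was possible because only 1 group of samples exists here. Genes with 1 probe near background, such as Ctsk and Ctse, are limited by signal over background.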
